A study of Danio rerio with 5 samples.

Results

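Wide domains of H3K27me3 in the zebrafish genome were examined for how their peaks and gaps differed between stages and for how much methylated DNA lay in them and beside them. A domain was formed by pooling the H3K27me3 peaks of 48 hours post fertilisation (48 hpf) and of dome stage on chromosomes 1 to 25 and joining peaks 5 kb or less apart. Those spanning 10 kb or more were kept. This gave 247 wide domains among 28403 joined regions (0.870%). They held 732 of the 6434 peaks of 48 hpf (11.4%) and 1560 of the 31983 peaks of dome (4.88%). The domains were thus chosen by the positions of the H3K27me3 peaks of both stages, so values of that mark are given as a description, whereas methylation played no part in the choice.

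The embryos were whole zebrafish embryos of mixed AB and Tübingen background, without any genetic or chemical treatment named in the labels. H3K27me3 was profiled by chromatin immunoprecipitation and sequencing (ChIP-seq) at 48 hpf and at dome, a blastula stage shortly after the embryo's own genome becomes active. Methylated DNA was profiled by MethylCap-seq, which captures fragments with a protein domain that binds methylated CpG, at dome, 24 hpf and 48 hpf. There were 5 samples with 1 library per group, so no difference between stages has a replicate check and no p-value is given.

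H3K27me3 is placed on histone H3 by Polycomb repressive complex 2, and in animals it can spread over long stretches around genes that control development, such as the Hox clusters. The mark keeps such genes silent in the cells where they are not used and is removed where they become active. The CpG-rich promoters of these genes are usually free of DNA methylation, and in vertebrate genomes dense DNA methylation and H3K27me3 tend to occupy different sequences. In a whole embryo, a weaker mark in many cells and a strong mark in few cells cannot be told apart.

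The domains covered 4.54 Mb, or 0.334% of the 1357 Mb spanned by the peaks on the 25 chromosomes. Their median width was 13.8 kb, with quartiles of 11.5 and 19.5 kb and a maximum of 80.6 kb. A typical domain joined 3 peaks of 48 hpf (quartiles 2 and 4) and 5 peaks of dome (quartiles 4 and 6), and the busiest ones held 14 of 48 hpf and 29 of dome. Most domains thus consisted of a handful of separate peaks and more unmarked sequence than marked. Both stages contributed peaks to 226 domains, 21 had dome peaks alone and none had 48 hpf peaks alone. When the same joining was applied to each list by itself, 50 of the 247 were wide at both stages, 13 at 48 hpf alone, 150 at dome alone, and 34 reached the width limit only through the pooled peaks. The longer dome list therefore set most of these domains.

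Every chromosome had at least 4 wide domains, and their density ranged between 0.0667 per Mb on chromosome 6 and 0.391 per Mb on chromosome 14, with a median of 0.189 per Mb. Of 222 pairs of neighbouring domains on the same chromosome, 36 were 50 kb or less apart, 9 of them on chromosome 14 and 6 on chromosome 10. The narrowest domain, chr13:29988207-29998227 (coordinates on danRer7, counted from 1), spanned 10021 bp with 2 peaks of 48 hpf and 4 of dome, and the next, chr25:8770601-8780663, spanned 10063 bp with 2 of each. Just below the limit, chr12:49624887-49634874 spanned 9988 bp with 4 dome peaks alone and chr6:31781938-31791896 spanned 9959 bp with 4 peaks of each stage. The narrowest domain and both of these regions below the limit thus held 4 dome peaks each, while their numbers of 48 hpf peaks differed.

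The 5 widest domains differed greatly in what remained of them at 48 hpf. The widest, chr23:36093482-36174129, had 7 peaks of 48 hpf over 7.83% of its bases and 27 peaks of dome over 39.7%. The domain chr14:2603923-2672543 had a single 48 hpf peak, over 0.614% of its 68.6 kb, and 21 dome peaks over 31.2%. On the same chromosome, chr14:2944610-3008849 had 6 peaks over 6.30% at 48 hpf and 29 peaks over 43.6% at dome. These 3 were dense arrays of peaks at dome with a few scattered peaks at 48 hpf.

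The other wide examples kept more. In chr3:23968898-24035317, 8 peaks of 48 hpf covered 9.67% and 24 peaks of dome covered 39.98%, and each 48 hpf peak lay on a dome peak. In chr8:36377438-36443235, 14 peaks of 48 hpf covered 26.95% and 25 peaks of dome covered 36.2%, and 18 of the dome peaks were met by a 48 hpf peak. This domain on chromosome 8 had more 48 hpf peaks than any of the other 246.

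**Figure D1:**
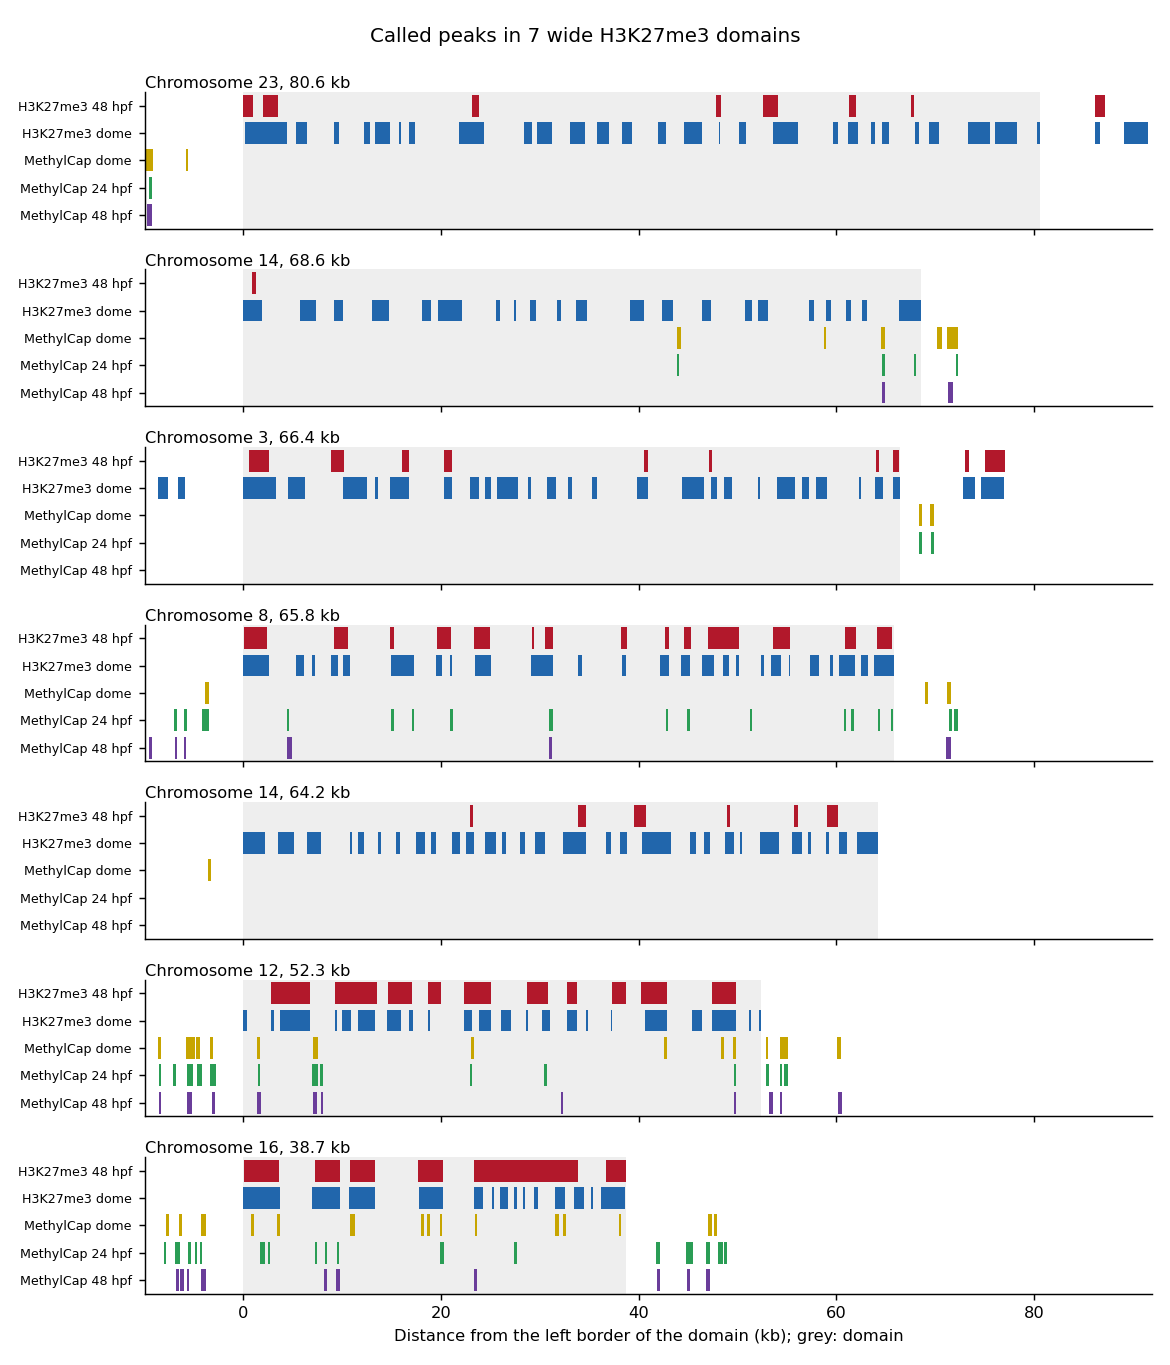
Maps of 7 wide domains, drawn as distance in kb from the left border (grey marks the domain, and up to 10 kb of flank is drawn), with a row of bars per peak list: H3K27me3 at 48 hpf and dome, then MethylCap at dome, 24 hpf and 48 hpf. The 5 widest domains are followed by a 52.3 kb domain on chromosome 12 and a 38.7 kb domain on chromosome 16; in the last 2 the 48 hpf bars are longer than the dome bars, and no MethylCap bar lies within the widest domain.

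The first question was which of the dome peaks in a domain were still called at 48 hpf. A dome peak is called kept here if a 48 hpf peak overlapped it by at least 1 bp, and otherwise lost, which means only that no peak was called there. In the wide domains 764 of 1560 dome peaks were kept (49.0%, Wilson 95% interval 46.5 to 51.5%) and 796 were lost. Over all dome peaks 15.6% were kept, and outside the wide domains 4223 of 30423 (13.9%, 13.5 to 14.3%). Joined regions of 5 to 10 kb, the next narrower class, kept 32.1% (30.1 to 34.0%) of their dome peaks. Intervals here and below cover counting error only and treat peaks as independent, although peaks of a domain lie side by side. Since 48 hpf peaks helped to build the domains, these shares describe them and test nothing.

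Dome peaks in the domains were wider and better supported than those elsewhere. Their median width was 808.5 bp in wide domains and 387 bp outside, and the median −log10 q given by the authors' peak caller was 3.55 in wide domains and 1.55 outside. Their median fold enrichment in the deposited list was nevertheless lower, 2.11 in wide domains and 3.16 outside. The 48 hpf peaks showed the same arrangement, with a median width of 1062 bp in wide domains and 737 bp outside, and a median fold of 1.97 in wide domains and 3.17 outside. Broad peaks of modest enrichment were thus typical of the domains at both stages.

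The higher kept share in wide domains was found mainly below the highest classes of dome peak width and −log10 q. Of dome peaks under 500 bp, 31.2% (27.3 to 35.4%) were kept in wide domains and 4.64% (4.35 to 4.95%) outside. For widths of 500 to under 1000 bp the shares were 42.6% (38.0 to 47.4%) in wide domains and 16.9% (16.1 to 17.7%) outside. For 1000 to under 2000 bp they were 62.8% (57.9 to 67.4%) in wide domains and 51.8% (49.9 to 53.6%) outside. Among peaks of 2000 bp or more they were 73.8% (68.0 to 78.9%) in wide domains and 70.6% (67.2 to 73.8%) outside, and the intervals overlapped. By −log10 q the shares also lay closest together in the highest class. Below 1.5, 15.1% (10.1 to 22.0%) of dome peaks were kept in wide domains and 2.67% (2.42 to 2.95%) outside. From 1.5 to 2 the shares were 26.4% (20.2 to 33.8%) in wide domains and 7.27% (6.68 to 7.90%) outside. From 2 to 5 they were 42.4% (38.9 to 45.9%) in wide domains and 25.3% (24.3 to 26.3%) outside. At 5 or more, 76.4% (72.5 to 79.98%) were kept in wide domains and 72.5% (70.6 to 74.4%) outside. A small dome peak in a wide domain was therefore met by a 48 hpf peak far more often than a small one outside. For the widest class the shares lay close together. This is a description, since 48 hpf peaks helped to build the domains. Outside, 20762 of 30423 dome peaks lay in joined regions under 1 kb, where 4.92% were kept. Joined regions of 1 to 5 kb kept 33.5% and those of 5 to 10 kb 32.1%, not split here by peak width.

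Pooled over domains, dome peaks near the domain edges were kept somewhat more often than those in the middle. With the domain length divided into 5 equal parts, the kept share was 53.7%, 43.8%, 40.1%, 48.1% and 55.8% from left to right. The pooled rule can place a 48 hpf peak at an edge, so the same count was made in domains built of dome peaks alone, and it gave 52.4%, 40.9%, 38.3%, 48.2% and 56.5%. In those domains the 2 outermost dome peaks were kept in 249 of 404 cases (61.6%, 56.8 to 66.2%) and the inner ones in 421 of 987 (42.7%, 39.6 to 45.8%). The outer and inner peaks, pooled over domains, thus differed by more than their counting error. Each domain gave 2 outermost peaks, whereas domains with many peaks gave more of the inner ones. Differences between domains were therefore mixed with position, and their part was not tested. Dome peaks at a border of a pooled domain were also wider than inner ones, with medians of 1008 bp at a border and 775 bp further in, and the part of width in the kept share was not tested.

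**Figure D2:**
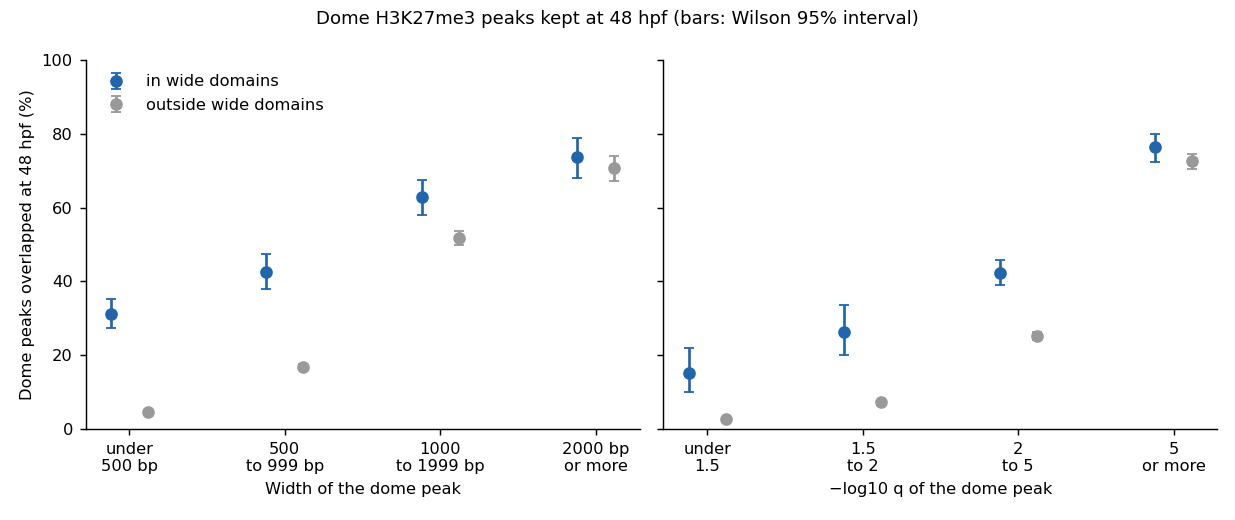
Share of dome H3K27me3 peaks (percent, vertical axis) overlapped by a 48 hpf peak, for wide domains and for the rest of the genome, by class of dome peak width in the left panel and of −log10 q in the right panel, with Wilson 95% intervals as error bars. The points of wide domains stand far above the others for peaks under 500 bp, 31.2% in wide domains against 4.64% outside, and close to them for peaks of 2000 bp or more, 73.8% against 70.6%.

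Domains differed widely in the share they kept. Every dome peak was kept in 24 domains and none in 27, and the median domain kept 50% (quartiles 25 and 75%). The kept share was 43.0% (38.9 to 47.2%) in the 34 domains of 25 kb or more and 52.7% (48.7 to 56.6%) in the 146 domains of 10 to 15 kb. By number, most peaks were lost in chr14:2944610-3008849 (23 of 29), chr23:36093482-36174129 (22 of 27), chr14:2603923-2672543 (20 of 21) and chr24:12371354-12435187 (19 of 24). These 4 domains were among the widest, and 2 of the 4 lay on chromosome 14. Wider domains held more dome peaks (r = 0.94, rho = 0.76, n = 247), so a ranking by number favours them. Across the 247 domains, width and kept share were hardly related (r = -0.12, rho = -0.05, a description).

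Chromosome 14 had the lowest kept share of the 25 chromosomes. Its 21 domains kept 45 of 177 dome peaks (25.4%, 19.6 to 32.3%), against 719 of 1383 (52.0%, 49.4 to 54.6%) on the other chromosomes. Of the 21, 12 lay in the first 4 Mb, where 18 of 129 dome peaks (13.95%) were kept and 17 peaks were called at 48 hpf. All the other chromosomes kept between 30.7% on chromosome 10 and 70.6% on chromosome 16, with 32.9% on chromosome 4 and 34.7% on chromosome 20. Heavy loss was not confined to chromosome 14. On chromosome 10, chr10:21780480-21816744 kept 1 of 12 dome peaks and chr10:21927299-21975122 kept 2 of 13.

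The 21 domains without any 48 hpf peak had a median width of 12.7 kb and a median dome coverage of 26.4%. In the 226 domains with peaks of both stages the medians were 13.8 kb and 39.7%. The 21 domains joined 104 dome peaks in all and lay on 13 chromosomes. The widest were chr14:2713268-2741464 with 12 dome peaks over 39.5% of 28.2 kb, chr20:17015771-17039989 with 9 over 19.6% of 24.2 kb, and chr14:2562517-2585738 with 5 over 31.3% of 23.2 kb. The first and the last of these flank the 68.6 kb domain of chromosome 14 described above, so that 3 neighbouring domains together held 1 peak at 48 hpf and 38 at dome. Others without a 48 hpf peak lay near each other on chromosome 10. They were chr10:21657979-21675663, chr10:21760271-21774334, chr10:21887029-21899786 and chr10:21910241-21920923, with 7, 6, 4 and 4 dome peaks.

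Few 48 hpf peaks in the domains lay on sequence without a dome peak. In wide domains 662 of 732 peaks of 48 hpf overlapped a dome peak (90.4%, 88.1 to 92.4%), against 72.7% of all 48 hpf peaks and 4018 of 5702 (70.5%, 69.3 to 71.6%) outside. Outside, the share was 49.3% in joined regions under 1 kb, 83.4% in those of 1 to 5 kb and 79.1% in those of 5 to 10 kb. The rule joined peaks of both lists, so these shares are a description. The 70 peaks of 48 hpf in wide domains without such an overlap lay in 59 domains and were narrow. Their median width was 455 bp, against 1164 bp for those on a dome peak. Joining was seldom larger than a pair: 96 peaks of 48 hpf (13.1%, 10.9 to 15.8%) each overlapped 2 or more dome peaks and 13 overlapped 3 or more, whereas 15 dome peaks (0.962%, 0.584 to 1.58%) overlapped 2 peaks of 48 hpf.

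In bases, 21.9% of the domains lay in 48 hpf peaks and 37.5% in dome peaks. The median domain had 22.5% of its bases in 48 hpf peaks (quartiles 11.1 and 33.3%) and 39.4% in dome peaks (quartiles 28.0 and 46.5%). Peaks of both stages overlapped on 15.4% of the domain bases, 6.53% were in 48 hpf peaks alone, 22.1% in dome peaks alone and 56.0% in neither. In 38 domains 48 hpf peaks covered more bases than dome peaks, and in 209 dome peaks covered more. The whole dome list covered 17.9 Mb and the 48 hpf list 6.39 Mb, so higher dome coverage was not particular to the domains. Across the 247 domains the coverage of the 2 stages was loosely related (Pearson's r = 0.41, Spearman's rho = 0.41; a description, since both values share the domain's width and borders).

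The domains with the highest 48 hpf coverage differed in width. In chr17:42929109-42939281, 69.1% of 10.2 kb lay in 48 hpf peaks and 61.0% in dome peaks. In chr2:47575092-47585404, of 10.3 kb, the shares were 66.2% at 48 hpf and 44.1% at dome. In chr16:20287983-20326654 they were 60.9% at 48 hpf and 48.9% at dome over 38.7 kb, and in chr24:16165899-16184926 56.7% at 48 hpf and 55.8% at dome over 19.03 kb. In the first and the second of these every dome peak was kept, and in the other two all but 1.

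**Figure D3:**
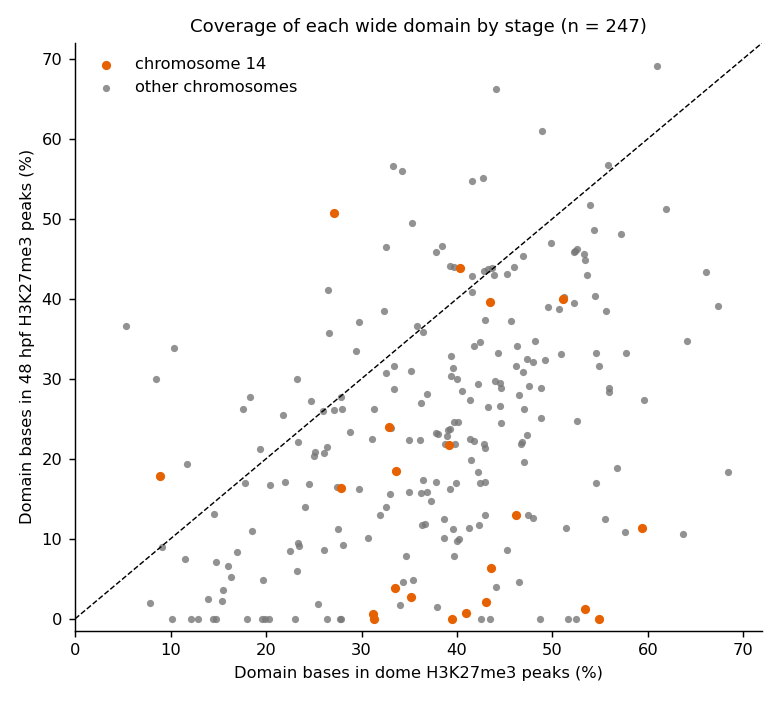
Each of the 247 wide domains as a point, with the percent of its bases in 48 hpf peaks on the vertical axis against the percent in dome peaks on the horizontal axis; the line marks equal coverage, and domains of chromosome 14 are coloured. Most points, 209, lie below the line, 38 above it, and 21 lie on the floor because they have no 48 hpf peak.

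The borders of the domains were more often those of dome peaks, which were also the more numerous. The 226 domains with peaks of both stages held 1456 dome peaks and 732 peaks of 48 hpf. In the 226 domains with peaks of both stages, 176 of 452 borders (38.9%, 34.6 to 43.5%) were set by a 48 hpf peak and 278 (61.5%, 56.9 to 65.9%) by a dome peak, 2 of them by both. At 48 hpf the outermost peaks still reached across a median of 94.9% of the domain width (quartiles 60.5 and 99.7%), and at dome across 99.8% (quartiles 96.6 and 100%). In the typical domain the extent at 48 hpf thus differed little from that at dome while the peaks between the borders were fewer. In 25% of the domains, however, the 48 hpf peaks reached across less than 60.5%.

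The next question was whether gaps between dome peaks were filled at 48 hpf. A gap is called bridged if 1 peak of the other stage overlapped both of its neighbours. Of the 1313 gaps between neighbouring dome peaks of a domain, 117 were bridged by a 48 hpf peak (8.91%, 7.49 to 10.6%), 320 were partly covered and 876 were empty at 48 hpf. Of gaps of 5 kb or less, 9.09% (7.64 to 10.8%) were bridged in wide domains, close to the 7.69% of all such gaps and the 7.16% (6.34 to 8.07%) outside. A gap can be bridged only if both dome peaks beside it were kept, and dome peaks were kept more often in wide domains. Among gaps with both kept, 117 of 363 (32.2%, 27.6 to 37.2%) were bridged in wide domains. Outside, 245 of 466 such gaps (52.6%, 48.0 to 57.1%) were bridged, a higher share. In bases, 215.0 kb of 2679 kb (8.03%) of these gaps lay in 48 hpf peaks. In the other direction, 15 of the 506 gaps between 48 hpf peaks were bridged by a dome peak (2.96%, 1.805 to 4.83%), 450 were partly covered and 41 were empty. Of 48 hpf gaps of 5 kb or less, 4.32% (2.64 to 7.01%) were bridged by a dome peak, against 7.37% of all such gaps. In bases, 574.7 kb of 2214 kb (25.95%) of the 48 hpf gaps lay in dome peaks, near the 25.3% outside.

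Most bridging concerned gaps too short to exist in the 48 hpf list. The shortest distance between neighbouring peaks was 990 bp in the 48 hpf list and 549 bp in the dome list, and the narrowest peaks were 247 bp wide at 48 hpf and 137 bp at dome, so the 2 lists were called at different resolution. Of the bridged dome gaps, 101 were among the 395 shorter than 990 bp (25.6%, 21.5 to 30.1%). The other 16 were among the 918 of that length or longer (1.74%, 1.08 to 2.81%). With both dome neighbours kept, 65.6% of the shorter gaps were bridged in wide domains and 81.0% outside. For the longer gaps these shares were 7.66% (4.77 to 12.1%) in wide domains and 24.4% (19.3 to 30.2%) outside. When dome peaks closer than 990 bp were joined first, a comparison chosen after seeing these values, 1.74% of dome gaps were bridged by a 48 hpf peak and 75 of 506 gaps of 48 hpf (14.8%) by a dome peak. The order of the directions was then the opposite. The part that resolution played in the bridging of short gaps was not tested further.

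Gaps of 1000 to 5000 bp were seldom bridged and mostly empty at 48 hpf. Those covered in part were mostly entered by 48 hpf peaks that reached in from a dome peak. Of the 386 gaps of 1000 to under 2000 bp, 15 were bridged (3.89%, 2.37 to 6.31%), 87 were partly covered and 284 were empty. Of the 502 gaps of 2000 to 5000 bp, 1 was bridged, 165 were partly covered and 336 were empty. Of all 278 partly covered gaps of 1 kb or more, 248 (89.2%) were entered only by 48 hpf peaks that also overlapped a dome peak, and 30 held 31 separate 48 hpf peaks, which made up 19.2% of the bases covered in these gaps. Outside the domains 49 of 841 gaps of 1000 to under 2000 bp were bridged (5.83%, 4.44 to 7.62%), and the intervals overlapped. Partly covered gaps of this length made up 22.5% in wide domains and 19.6% outside. For 2000 to 5000 bp they made up 32.9% in wide domains and 10.7% outside. Dome peaks were more often kept in wide domains than outside, and the part of this in these shares was not tested. Gaps over 5 kb, of which there were 26, were all partly covered because the joining rule needs a 48 hpf peak in them.

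**Figure D4:**
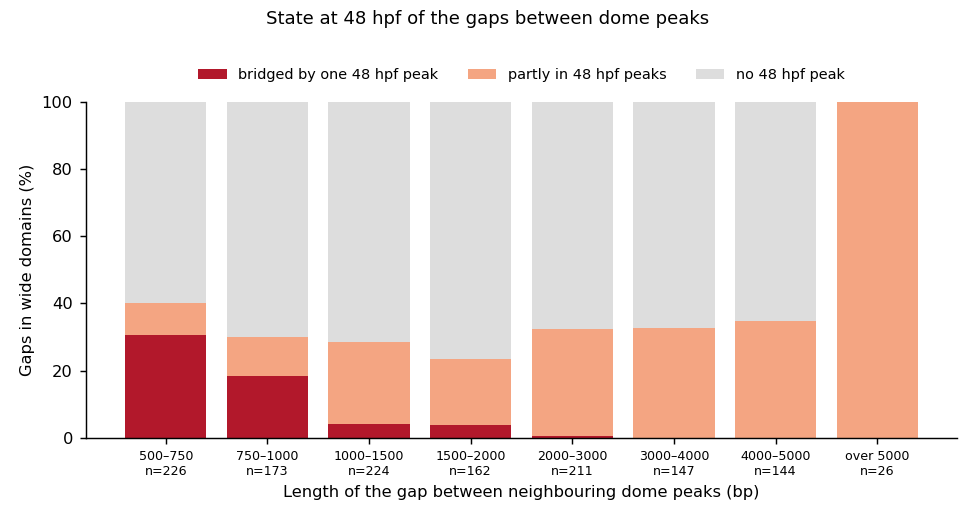
The 1313 gaps between neighbouring dome peaks in wide domains by gap length in bp (horizontal axis, with the number of gaps per class), as the percent bridged by a 48 hpf peak, partly covered or empty. Under 5% are bridged from the class of 1000 bp on, next to the smallest gap of 990 bp in the 48 hpf list, and gaps over 5 kb are all partly covered through the joining rule.

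Gap filling was spread over many domains. At least 1 gap was bridged in 67 of the 247, and 184 (74.5%) had some gap sequence in 48 hpf peaks, of which the 4 domains with the most held 12.8%. The most gap sequence in 48 hpf peaks, 7886 bp or 24.5% of its dome gaps, was found in chr12:15428276-15480612, where 6 of 21 gaps were bridged and 16 of 22 dome peaks kept. In chr16:20287983-20326654, 7 of 13 gaps were bridged and 6534 bp filled; all 7 lay under 1 peak of 48 hpf of 10493 bp that overlapped 8 dome peaks. In chr23:12721570-12779488, 4 of 21 gaps were bridged and 6595 bp filled, and its strongest peak had the highest fold of any domain at 48 hpf, 10.1, against 11.9 at dome. In chr10:13014082-13046298, by contrast, 6614 bp were filled with no gap bridged: 3 of its 8 peaks of 48 hpf stood apart from its 6 dome peaks. In the first 3 of these domains each 48 hpf peak overlapped a dome peak, so their gaps were filled by bridging or by peaks reaching in from a dome peak, and only the domain on chromosome 10 had separate 48 hpf peaks.

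Methylated DNA, pooled over bases, was sparser in the wide domains than in the whole chromosome span. MethylCap peaks covered 3.53% of the domain bases at dome, 3.81% at 24 hpf and 2.85% at 48 hpf, against 7.18%, 8.76% and 5.30% of the whole chromosome span. Narrower joined regions had more: those of 5 to 10 kb had 7.74% at dome, 7.87% at 24 hpf and 6.41% at 48 hpf, and all regions under 10 kb had 13.4%, 13.7% and 11.2%. Among the wide domains themselves the coverage was 4.98%, 4.78% and 3.95% for widths of 10 to 15 kb and 1.31%, 1.83% and 0.928% for the 34 domains of 25 kb or more. Pooled over bases, MethylCap coverage was therefore lowest in the widest class of domains at all 3 stages. Across the 247 single domains, width and mean MethylCap coverage were hardly related (r = -0.14, rho = -0.05, a description). The choice of joining distance bore on the comparison with the chromosome span. With peaks up to 10 kb apart joined, 1669 domains had 7.81% at dome, 8.42% at 24 hpf and 6.01% at 48 hpf. These were above the chromosome span at dome and 48 hpf. The 5 kb outside the borders had 5.67%, 6.72% and 4.14% for domains of 10 to 15 kb, and 6.46%, 6.87% and 4.57% for 25 kb or more. At 48 hpf the domains of 10 to 15 kb were thus close to their flanks. Median coverage was 0% inside domains at all 3 stages, and 0% in the 5 kb on each side at dome and 48 hpf.

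The methylated DNA was unevenly shared among the domains. No MethylCap peak of any stage lay in 114 of 247 (46.2%, 40.04 to 52.4%), whereas 87 had peaks at all 3 stages. Of joined regions of any width, which are mostly far shorter, 54.3% had none. A group of 34 domains of any width, each with a mean coverage of 10% or more over the 3 stages, held 60.1% of the MethylCap bases in domains at dome, 55.8% at 24 hpf and 64.5% at 48 hpf. The coverage of a domain at dome and at 48 hpf went together across domains (r = 0.92, rho = 0.84, n = 247; a description, since domains share the libraries and most zeros). Domains with much methylated DNA at dome thus mostly had much at 48 hpf.

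The widest domains without any MethylCap peak were chr23:36093482-36174129, chr3:23968898-24035317, chr14:2944610-3008849 and chr24:12371354-12435187. The first also had none within 5 kb of either border, while the last had MethylCap peaks over 32.5%, 35.3% and 19.0% of the 5 kb to its left at dome, 24 hpf and 48 hpf and none in the 5 kb to its right. At the other extreme, chr20:55785141-55797456 had 47.7%, 50.3% and 44.9% of its 12.3 kb in MethylCap peaks at the 3 stages and chr5:1182159-1194032 had 45.7%, 46.5% and 42.5%. In chr4:61288284-61305657 the shares were 30.3%, 45.2% and 39.0%, and in chr18:35531-53837 they were 37.0%, 35.5% and 34.7%. These last 4 were all under 19 kb and kept 10 of 22 dome peaks.

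One of the widest domains carried methylated DNA mainly at 24 hpf. The domain chr8:36377438-36443235 had no MethylCap peak at dome, 12 at 24 hpf and 2 at 48 hpf. The 12 peaks were between 192 and 372 bp wide, with deposited folds of 2.84 to 5.42, and were scattered along the whole domain. The 24 hpf list was the longest of the 3, with 330176 peaks against 220564 at dome and 192673 at 48 hpf, and the part of that difference in this domain was not tested.

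Inside the domains most MethylCap peaks touched an H3K27me3 peak, though they covered H3K27me3 peaks only somewhat more than gaps. Of the 308 MethylCap peaks of dome that touched a domain, 209 (67.9%, 62.4 to 72.8%) overlapped an H3K27me3 peak of either stage. So did 271 of 402 at 24 hpf (67.4%, 62.7 to 71.8%) and 175 of 292 at 48 hpf (59.9%, 54.2 to 65.4%). MethylCap peaks lay across 34 domain borders at dome, 28 at 24 hpf and 28 at 48 hpf. These overlapped H3K27me3 by construction, since each domain begins and ends with an H3K27me3 peak. Overlap needed 1 bp, and the share for randomly placed peaks was not tested. In bases, H3K27me3 peaks of either stage made up 44.0% of the domains and held 53.2% of their MethylCap sequence at dome, 56.5% at 24 hpf and 51.8% at 48 hpf. Bases in H3K27me3 peaks of both stages were the most covered, 6.04% at dome, 7.84% at 24 hpf and 4.18% at 48 hpf. Those in 48 hpf peaks alone had 1.43%, 1.45% and 0.922%, those in dome peaks alone 3.88%, 3.84% and 3.50%, and the gaps of both stages 2.95%, 2.96% and 2.45%. MethylCap peaks within the domains were thus densest where H3K27me3 was called at both stages, and least dense in sequence marked at 48 hpf alone.

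Counted by peak, dome H3K27me3 peaks in the domains seldom met a MethylCap peak. The share was 11.1% (9.63 to 12.7%) at dome, 12.9% (11.4 to 14.7%) at 24 hpf and 9.36% (8.01 to 10.9%) at 48 hpf, against 29.6%, 34.7% and 27.1% of all dome peaks. For the 48 hpf peaks in domains the shares were 11.9% (9.74 to 14.4%), 16.3% (13.8 to 19.1%) and 9.15% (7.27 to 11.5%), against 13.9%, 16.2% and 12.1% of all 48 hpf peaks. The 48 hpf peaks of the domains were therefore near the background, and the dome peaks well below it, although they were the wider ones.

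The difference lay in the lost dome peaks. In wide domains 109 of 796 lost dome peaks (13.7%, 11.5 to 16.3%) met a MethylCap peak of any stage, against 12136 of 26200 (46.3%, 45.7 to 46.9%) outside. For kept dome peaks the shares were 144 of 764 (18.8%, 16.2 to 21.8%) in wide domains and 743 of 4223 (17.6%, 16.5 to 18.8%) outside, with overlapping intervals. Outside the domains, lost dome peaks were thus the ones that often met methylated DNA, whereas in the domains lost and kept peaks both met it seldom. Lost dome peaks were 585 bp wide in wide domains and 340.5 bp outside (medians), and their median −log10 q was 2.57 in wide domains and 1.47 outside. Most dome peaks outside, 20762 of 30423, lay in joined regions under 1 kb, where MethylCap peaks covered 20.9%, 22.9% and 17.8% of bases. Joined regions of 5 to 10 kb had 7.74%, 7.87% and 6.41%, and their lost peaks were not counted apart. The parts of peak strength and region width in the difference between lost peaks were not tested.

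Over all domains, MethylCap coverage was lower close to the borders than further out, and higher in the first 1 kb inside than in the first 1 kb outside. MethylCap coverage was 7.53%, 8.70% and 5.05% at dome, 24 hpf and 48 hpf from 10 to 20 kb outside the borders, and 5.80%, 6.74% and 4.18% in the 5 kb outside. From 1 to 2 kb outside it was 5.33%, 6.32% and 3.08%, in the first 1 kb outside 4.60%, 4.66% and 3.98%, and in the first 1 kb inside 7.46%, 6.51% and 5.17%. Further in, it was 4.47%, 4.02% and 3.71% from 1 to 2 kb and 0.826%, 1.44% and 0.567% beyond 10 kb from the nearer border. The last of these zones exists only in domains of over 20 kb. Pooled over domains, coverage was thus lowest in the core, but 831684 of 878674 bp there lay in domains of 25 kb or more. In those it was 1.26%, 1.496% and 0.865% from 1 to 2 kb inside and 0.753%, 1.41% and 0.541% in the core. In domains of 15 to 25 kb, the only others with a core, it was 3.73%, 4.704% and 2.96% from 2 to 5 kb. From 5 to 10 kb they had 4.42%, 5.14% and 4.09%, and in the core 2.12%, 2.03% and 1.02%. This core was only 46990 bp of 23 domains, with 4.23%, 4.06% and 2.04% in its left part and 0% in its right part. On the left, 5 to 10 kb inside, they had 4.34%, 5.14% and 4.14%. The part of domain width in the low core was not tested. The zone just inside the border, where each domain begins with an H3K27me3 peak, stood above both of its neighbours. At 48 hpf the lowest zone outside was that from 1 to 2 kb.

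The step at the edge was found in the narrower domains. In domains of 10 to 15 kb the first 1 kb inside had 9.02%, 7.39% and 6.50% and the first 1 kb outside 5.85%, 5.41% and 4.88%, and in those of 15 to 25 kb the values were 5.44%, 5.64% and 4.01% inside and 2.03%, 3.08% and 2.02% outside. In the 34 domains of 25 kb or more the inside had 4.75%, 4.41% and 1.74% and the outside 4.28%, 4.58% and 3.98%, so that the order was the opposite at 24 hpf and 48 hpf.

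Over all domains the step was seen on both sides and was larger on the left. In the first 1 kb inside, the left border had 8.32%, 6.98% and 5.51% and the right border 6.60%, 6.03% and 4.83%. In the first 1 kb outside, the left border had 4.38%, 4.35% and 3.86% and the right border 4.81%, 4.98% and 4.09%. On the right, the zone from 1 to 2 kb outside was lower than this at dome and 48 hpf, with 3.86%, 5.19% and 2.25%. Also on the right, bins further inside came close to those at the edge: 2 to 5 kb inside, the coverage was 4.63%, 5.13% and 4.06%, against 2.71%, 3.13% and 1.998% on the left. The inside value was thus the higher on each side at all 3 stages, but single bins varied by as much as the step on the right, and no error can be given for these values.

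The nearest MethylCap peak outside a border lay at a median distance of 5356 bp at dome, 4295 bp at 24 hpf and 6303 bp at 48 hpf, against 3078, 2071 and 3905 bp for regions under 10 kb. A MethylCap peak lay across or within 1 kb outside of 13.6% (10.8 to 16.9%) of domain borders at dome, 15.2% (12.3 to 18.6%) at 24 hpf and 13.6% (10.8 to 16.9%) at 48 hpf. For the narrower regions the shares were 30.8%, 36.8% and 26.8%. Wide domains were thus set further from MethylCap peaks than narrower regions were.

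**Figure D5:**
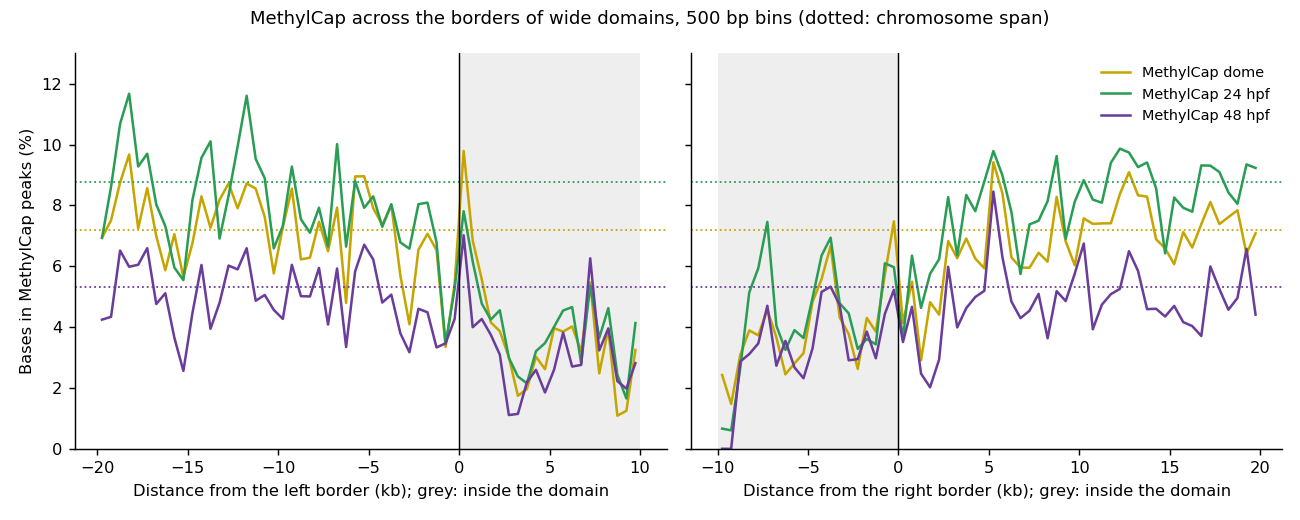
Percent of bases in MethylCap peaks (vertical axis) in bins of 500 bp by distance in kb from the left border (left panel) and the right border (right panel) of the wide domains, grey inside, with a line for each of dome, 24 hpf and 48 hpf and dotted lines for the whole chromosome span. The first bin inside the left border reads 9.79%, 7.81% and 7.02%, that inside the right border 7.48%, 5.97% and 5.23%, and most of the bins further inside lie below the dotted lines.

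Pooled over domains, lost dome peaks at the edge met methylated DNA more often than lost dome peaks further in. Of the 171 lost dome peaks that formed a border, 53 met a MethylCap peak of any stage (31.0%, 24.5 to 38.3%), against 56 of 625 lost dome peaks further in (8.96%, 6.96 to 11.5%). Of the kept dome peaks, 28 of 149 at a border (18.8%, 13.3 to 25.8%) and 116 of 615 further in (18.9%, 15.97 to 22.1%) met one, and the intervals overlapped. The widths of the lost ones were alike, 574 bp at a border and 590 bp further in (medians). Domains with many peaks contribute mostly inner ones, however. Domains of 25 kb or more held 540 of the 1560 dome peaks and, pooled over bases, had the lowest MethylCap coverage of the width classes. The part of domain width in the contrast between edge and interior was not tested. Edge peaks that were lost stood between the lost peaks of the interior and those outside any wide domain.

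Domains in which every dome peak was lost had more methylated DNA than the rest. In these 27 domains MethylCap peaks covered 8.67% at dome, 7.80% at 24 hpf and 6.32% at 48 hpf. In the 66 that kept some but under 50% the coverage was 3.30%, 3.08% and 2.82%, in the 130 that kept 50% or more but not all 2.89%, 3.59% and 2.26%, and in the 24 that kept all 3.08%, 3.94% and 3.09%. The first class stood near the chromosome span and the other 3 below it at each stage. Across all 247 domains the kept share and the mean MethylCap coverage were only weakly related (r = -0.20, rho = -0.11; a description).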

How the data were processed

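Peak lists of 5 libraries were used as deposited, 1 per sample, on the danRer7 build. Per the submitters' processing notes, CASAVA 1.8.2, Bowtie2 2.2.1, SAMtools and MACS2 were used; the sources used here do not give their roles, parameters, control libraries or any pooling of embryos. The fold enrichment is the authors' ratio of a peak over the background their caller used, and the deposited −log10 p and −log10 q columns come from the authors' caller; both served only to describe or filter peaks within a list. The lists hold no read counts, so depth is unknown and a missing peak is not proof of a missing mark.

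Peaks on chromosomes 1 to 25 were kept, and those on the mitochondrial genome were set aside (2 of 48 hpf and 5 of dome for H3K27me3, and for MethylCap 7 of dome, 4 of 24 hpf and 0 of 48 hpf). The chromosome span was taken as the highest peak end per chromosome. Overlap needed 1 bp. Shares of peaks, gaps and domains have Wilson 95% intervals; no test between groups was possible with 1 library each. Coverage inside a domain was assigned to the nearer border and counted in bins of 500 bp. The domains named are the widest, those with the highest 48 hpf coverage, most gap filling, most lost peaks or highest MethylCap coverage, the widest without 48 hpf or MethylCap peaks, and those at the width limit; a domain with any other distinction was named after its values were seen. Members and lists were chosen with earlier results of these data known. The computations (Python 3.11.15, numpy 2.4.6, pandas 2.3.3, matplotlib 3.10.9) were tested on simulated data. A danRer7 genome sequence and gene annotation were not used here, so no genes or sequences are given.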

Additional observations from a re-analysis of the deposited data

How the results depend on the processing

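Of 149 values recomputed under 12 other settings, 100 were classed as unmoved and 49 as moved, and leaving out chromosome 4 moved none. Counts were unmoved within 1.5 times, and shares of peaks, gaps and domains within their counting error. Shares of bases have no counting error, and the band used for them was wide. At 24 hpf, MethylCap coverage classed as unmoved fell from 3.81% to 2.21% with joining within 2.5 kb. It was 2.13% in domains of 20 kb or more. At dome it fell from 3.53% to 1.88% with the dome list reduced to the length of the 48 hpf list. Being unmoved thus does not show that a share of bases held. The joining distance mattered most. Joining within 2.5 kb gave 96 domains, 52.3% of dome peaks kept, 92.4% of 48 hpf peaks on a dome peak, 13.4% and 1.58% of dome and 48 hpf gaps bridged, 28.0% and 47.2% of bases in 48 hpf and dome peaks, MethylCap coverage of 1.797% at dome and 1.32% at 48 hpf, and 68.8% of domains without MethylCap. Joining within 10 kb gave 1669 domains, 27.5% kept, 81.2% on a dome peak, 4.60% of dome gaps bridged, 8.10% and 16.5% of bases in 48 hpf and dome peaks, MethylCap coverage of 7.81%, 8.42% and 6.01%, and 7.13% without MethylCap, so the lower MethylCap coverage than the chromosome span did not hold at dome and 48 hpf. The 57 domains of 20 kb or more gave 45.5% kept, 96.0% on a dome peak, MethylCap coverage of 1.63% at dome and 1.07% at 48 hpf, and 36.8% without MethylCap.

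With H3K27me3 peaks of −log10 q of 2 or more, 40.6% were kept and 92.8% lay on a dome peak. With the dome list reduced to the length of the 48 hpf list there were 162 domains, 65.9% kept, 79.9% on a dome peak, 12.5% of dome gaps bridged, 28.7% of bases in 48 hpf peaks and 54.3% without MethylCap. In domains of dome peaks alone 97.5% of 48 hpf peaks lay on a dome peak; the 66 domains of 48 hpf peaks alone gave 83.4% kept, 94.9% on a dome peak, 20.3% of dome gaps bridged and 42.5% and 43.9% of bases in 48 hpf and dome peaks. An overlap of 50% of the shorter peak gave 44.6% kept and 85.9% on a dome peak, and the higher-scoring 50% of each MethylCap list left 53.0% of domains without MethylCap. The remaining settings were chosen after seeing the data: joining dome peaks closer than 990 bp gave 51.8% kept, 1.74% and 14.8% of dome and 48 hpf gaps bridged and 43.9% of bases in dome peaks, and leaving out chromosome 14 gave 52.0% kept. The causes of these shifts were not tested beyond what each setting changes by construction.

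No paired analysis was possible because each group has 1 library. Depth is unknown for all lists, the dome list is the longer one and the H3K27me3 lists differ in resolution, so losses of peaks between stages cannot be told apart from differences in depth or calling. MethylCap signal depends on how densely methylated CpGs lie, so a missing peak does not show unmethylated DNA.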

Other observations

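After the MethylCap lists of the 3 stages were merged, 474 regions touched a wide domain. Of these, 186 (39.2%, 34.9 to 43.7%) held peaks of all 3 stages, against 31.6% of the 372586 regions outside the domains, and 102 (21.5%, 18.1 to 25.4%) held a 24 hpf peak alone, against 28.6% outside. A dome peak alone was found in 50 (10.55%, 8.09 to 13.6%) and a 48 hpf peak alone in 38 (8.02%, 5.90 to 10.8%), against 7.21% and 5.68% outside. Methylated regions inside the domains were therefore more often seen at every stage and less often at 24 hpf alone than those elsewhere, by more than their counting error. That error treats regions as independent, although many lay in the same domain. MethylCap peaks were also wider in the domains than outside, with medians of 434.5 and 370 bp at dome, 329 and 298 bp at 24 hpf, and 346.5 and 309 bp at 48 hpf. The part of peak width in these shares was not tested.

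The 14 domains on chromosome 4 had MethylCap peaks over 10.4%, 9.93% and 8.01% of their bases at dome, 24 hpf and 48 hpf, and the 233 on other chromosomes 3.18%, 3.49% and 2.58%. By chromosome, the coverage ranged between 0% at all 3 stages in the 4 domains of chromosome 11 and 19.4%, 21.1% and 16.9% in the 5 domains of chromosome 18. In the 11 domains with a mean MethylCap coverage of 20% or more, 20 of 53 dome H3K27me3 peaks (37.7%) were kept at 48 hpf. The share was 49.0% in all wide domains and 15.6% over all dome peaks.

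Gaps between dome peaks that a 48 hpf peak bridged had a MethylCap peak of any stage in 16 of 117 cases (13.7%, 8.60 to 21.1%), partly covered gaps in 71 of 320 (22.2%, 18.0 to 27.1%) and empty gaps in 127 of 876 (14.5%, 12.3 to 17.0%). The median lengths were 704, 2378 and 1565 bp, so the longest class had the highest share.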
